A study of Mus musculus with 6 samples.

Results

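The genes described here are 9 growth factor receptors and ligands of liver regeneration, chosen by name: the receptors Egfr, Erbb2, Erbb3, Met and Fgfr4, the co-receptor Klb, and the ligands Hgf, Areg and Hbegf. Of the 9, 8 had a row among the 14499 genes of the deposited table, and Areg, which encodes amphiregulin, was not analysed here. RNA-seq levels are given in FPKM (fragments scaled to gene length and to the number of mapped fragments), so levels of different genes can be set side by side. A gene was tested when it reached 1 FPKM in at least 3 of the 6 libraries. This left 11839 genes, 7 of them among the 9, while Erbb2 stayed below that level.

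The libraries were made from total RNA of whole mouse liver. The tested mice carried a knockout of Arid1a restricted to hepatocytes (Arid1a_KO_DDC, 3 libraries), and they were set against wild-type mice (WT_DDC, 3 libraries). All were on a mixed C57Bl/6; 129Sv background, were 10 weeks old and had 2 weeks of DDC, a compound that disturbs heme synthesis and injures the bile ducts. Arid1a encodes a subunit of the BAF chromatin remodelling complex, and the comparison addresses how its loss alters the transcripts of the injured liver. Uninjured liver is not part of the comparison, so no level below can be read as a response to DDC. The driver of the hepatocyte deletion is not given in the sources used here. Cells other than hepatocytes keep Arid1a and contribute to the RNA. Whether the libraries stand for 3 different animals per genotype is not stated in the labels. The p-values below therefore cover library-to-library spread, part of which may be technical.

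Between 11280 and 11712 genes per library reached 1 FPKM. Arid1a itself was at 6.61, 5.01 and 3.81 FPKM in knockout libraries, against 7.85, 5.48 and 5.98 FPKM in wild-type libraries, and the groups overlapped. A level over the whole gene in whole tissue does not check a deletion in hepatocytes. The hepatocyte marker Alb lay between 26589 and 34012 FPKM over the 6 libraries, and all 10 hepatocyte markers were detected. Replicate 1 of both genotypes carries library numbers L0566 and L0567 and had almost no Ddx3y, a Y-linked transcript (0.0227 FPKM in the knockout and 0.0527 FPKM in the wild-type library), whereas replicates 2 and 3 (L0602 to L0605) had 9.27 to 11.3 FPKM. In each genotype replicate 1 thus comes from another animal than replicates 2 and 3. The split by library number cannot be told apart from sex, which the labels do not give. This split is balanced over genotype, and differences within it are given beside the pooled ones.

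Liver regeneration draws on several receptor tyrosine kinases. EGFR and its relatives ERBB2 and ERBB3 form pairs: EGFR binds ligands such as amphiregulin and heparin-binding EGF, ERBB3 binds neuregulins and signals mainly through its partner, and ERBB2 has no known ligand of its own. MET is the receptor of hepatocyte growth factor (HGF), which in liver is made by stellate and sinusoidal endothelial cells rather than by hepatocytes. FGFR4 with its co-receptor beta-klotho, the product of Klb, receives the gut hormone FGF15 in hepatocytes and restrains bile acid synthesis. These receptors feed the RAS-ERK and PI3K-AKT cascades. In the GENCODE M21 annotation of GRCm38 all are protein-coding genes: Egfr at chr11:16752203-16918158 (plus strand), Erbb2 at chr11:98412470-98437716 (plus), Erbb3 at chr10:128567523-128589652 (minus), Met at chr6:17463800-17573980 (plus), Fgfr4 at chr13:55152640-55168759 (plus), Klb at chr5:65348314-65384007 (plus) and Hgf at chr5:16553495-16620152 (plus).

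Taken over the 6 libraries, the receptors Fgfr4, Erbb3, Egfr and Met stood above the ligands Hbegf and Hgf in FPKM. Fgfr4 and Erbb3 both averaged 17.1 FPKM and neither led: Fgfr4 was the higher of the pair in 3 of 6 libraries. Egfr followed with 11.04 FPKM and was below Erbb3 in 5 of 6 libraries. Met averaged 5.36 FPKM and was below Egfr in 6 of 6 libraries. Klb averaged 3.10 FPKM and Hbegf 2.81 FPKM, and their order was 3 libraries each way. Hgf averaged 1.91 FPKM and was below Hbegf in 6 of 6. Erbb2 was last, at 0.372 FPKM. Over the 6 libraries every neighbouring pair in this order overlapped in range, except Hgf and Erbb2.

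**Figure D1:**
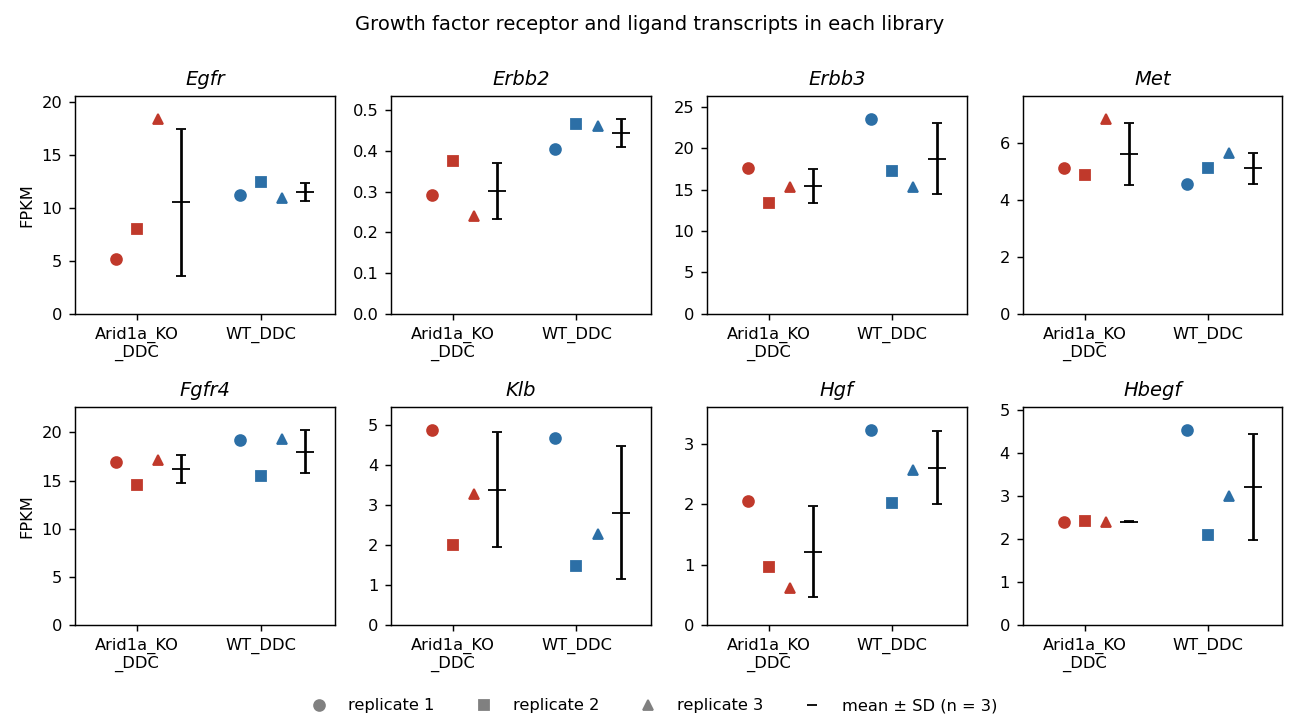
FPKM of the 8 genes with a row in the table, in each library (points; the shape gives the replicate number), with the mean and SD of 3 libraries beside them, Arid1a_KO_DDC in red and WT_DDC in blue, each panel with its own axis from 0. Egfr spread from 5.18 to 18.4 FPKM among knockout libraries, and Hgf was below 1 FPKM in knockout replicates 2 and 3 alone.

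By limma, 0 of the 7 tested genes passed an adjusted p of 0.05 between knockout and wild type, where 0.49% of all genes tested did. The groups did not overlap for 0 of the 7, where they did not for 16.6% of all genes tested, 9.56% with knockout lower. Their adjusted p-values ran from 0.371 to 0.852. At an unadjusted p under 0.05 there was 1 gene, Hgf, against 11.1% of all genes tested. The log2 difference was below 0 for 5 of the 7, with a median of -0.25, beside 5851 of the 11839 genes tested and a median of 0.0034. With 3 libraries a group the intervals are wide, and for most of these genes they include changes in both directions.

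Hgf, the ligand of MET, had the difference farthest from 0 among these genes. It was at 2.06, 0.966 and 0.610 FPKM in knockout libraries, against 3.23, 2.02 and 2.57 FPKM in wild-type libraries. The 2 lowest of these values belong to knockout replicates 2 and 3, and the groups overlapped only where knockout replicate 1 stood just above wild-type replicate 2. The means were 1.21 ± 0.756 FPKM in knockout and 2.61 ± 0.605 FPKM in wild-type libraries (SD, n = 3 each), a ratio of 0.465. On the log2(FPKM + 1) scale, which understates changes of low genes, the difference was -0.75 (SE 0.27, 95% interval -1.38 to -0.11, limma adjusted p = 0.371; exact permutation p = 0.2, where 0.1 is the smallest that 3 against 3 libraries allow). It was -0.47 in replicate 1 and -0.88 in replicates 2 and 3. Leaving out 1 library gave -1.01 to -0.54, and it stayed below 0 in every alternative run.

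Markers of the cells that make HGF were low in the same 2 knockout libraries as Hgf. The 10 stellate and fibroblast markers summed to 244, 188 and 141 FPKM in knockout libraries and to 320, 214 and 286 FPKM in wild-type libraries, with 8 of 10 differences below 0 and 0 of 10 past the threshold. Dcn, a matrix proteoglycan, is the most abundant of them, and the other 9 summed to 128, 94.6 and 80.9 FPKM in knockout libraries and to 120.0, 115 and 132 FPKM in wild-type libraries. The 8 endothelial markers summed to 92.6, 66.2 and 43.8 FPKM in knockout libraries and to 94.9, 73.0 and 113.6 FPKM in wild-type libraries, with 8 of 8 differences below 0 and 0 of 8 past the threshold. Knockout replicate 3 had the lowest sum of both lists and the lowest Hgf. In that library 8 of the 10 stellate and 8 of the 8 endothelial markers were lowest of the 6 libraries, and no marker of either list was at 0 in any library. Lrat, which stores vitamin A in quiescent stellate cells, was at 4.01, 2.29 and 1.32 FPKM in knockout libraries, against 6.15, 2.52 and 7.94 FPKM in wild-type libraries. Pdgfrb, a receptor of stellate cells, was at 5.88, 4.20 and 2.32 FPKM in knockout libraries, against 7.15, 5.55 and 6.06 FPKM in wild-type libraries. Hgf was set against each of the 18 markers in turn within a library, as log2 ratios of FPKM + 1. The difference was below 0 for 16 markers and above 0 for 2, with a median of -0.26. It ran from -0.95 per Reln to 0.11 per Lrat over the stellate markers, with -0.0063 per Dcn, 0.063 per Acta2 and -0.19 per Pdgfrb between them. Over the endothelial markers it ran from -0.51 per Stab2 to -0.095 per Clec4g. The added 1 shrinks the fall of a low gene such as Hgf more than that of an abundant marker. Values near 0 therefore need not mean equal falls. In plain FPKM the means had a ratio, knockout over wild type, of 0.465 for Hgf, 0.459 for Lrat, 0.501 for Acta2 and 0.594 for Dcn. Lrat, Acta2 and Dcn had the lowest such ratios of the 18 markers. The other stellate markers ran from 0.661 for Pdgfrb to 1.15 for Reln, and the 8 endothelial markers from 0.639 to 0.900. These differences and ratios carry no test. In whole liver RNA, fewer cells of a type and less RNA per cell cannot be told apart, and the part of these cells in the Hgf difference was not tested.

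**Figure D2:**
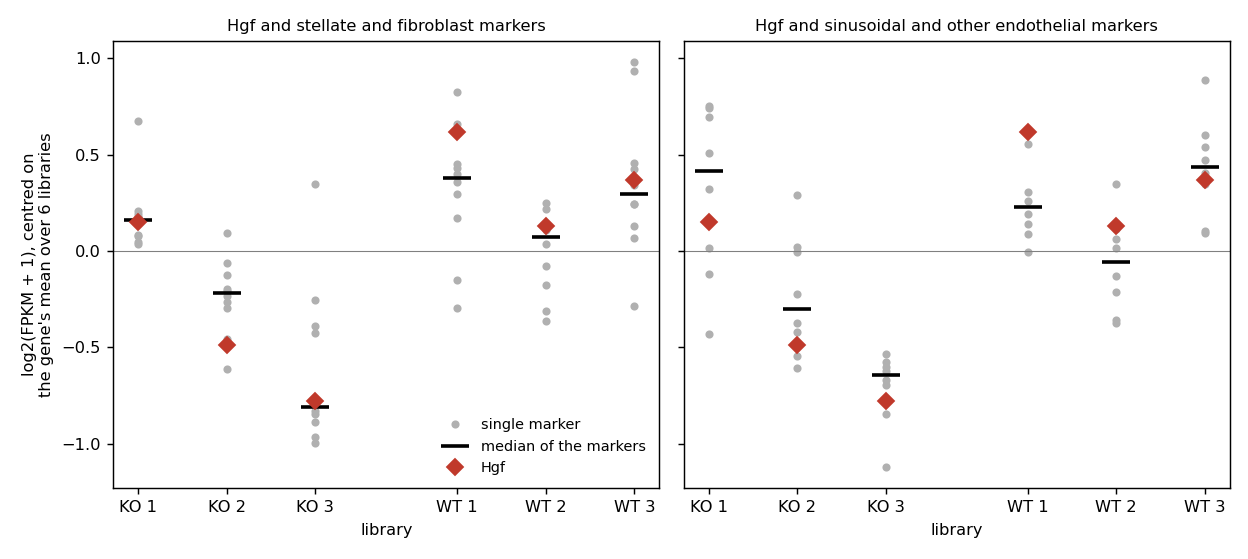
Hgf (red) with 10 stellate and fibroblast markers (left) and 8 endothelial markers (right), as log2(FPKM + 1) centred on each gene's mean over the 6 libraries; grey points are single markers, black bars their median, and libraries run along the x axis. In knockout replicate 3 Hgf stood at -0.78 and the marker medians at -0.81 and -0.65, the lowest of the 6 libraries in all 3.

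Met, which hepatocytes express, was close to even between the genotypes. It was at 5.13, 4.87 and 6.85 FPKM in knockout libraries, against 4.56, 5.13 and 5.64 FPKM in wild-type libraries, and the groups overlapped. The log2 difference was 0.11 (SE 0.17, 95% interval -0.29 to 0.50, limma adjusted p = 0.852), 0.14 in replicate 1 and 0.089 in replicates 2 and 3. The ligand to receptor ratio, Hgf over Met, was 0.0891 to 0.402 in knockout libraries and 0.394 to 0.709 in wild-type libraries in FPKM, with a log2 difference of -0.85 that was not past the threshold (exact permutation p = 0.2, adjusted p = 0.6 over the 4 ratios computed).

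Of the 13 tested genes around HGF and MET, 0 passed the threshold by limma, 3 had an unadjusted p under 0.05, and the median log2 difference was 0.013. Groups did not overlap for 3 of the 13 with knockout lower and for 1 with knockout higher, beside 16.6% of all genes tested. Here and in the lists below, genes are named for their small p, which goes with groups that do not overlap. Counts at an unadjusted p under 0.05 stand beside 11.1% of all genes tested. Hgfac is the protease that hepatocytes secrete and that activates pro-HGF. It averaged 149 ± 13.8 FPKM in knockout and 123 ± 10.5 FPKM in wild-type libraries (SD, n = 3 each, limma adjusted p = 0.529). Its groups did not overlap. Cd44, a membrane glycoprotein that can act as a MET co-receptor, was at 5.93, 5.40 and 3.48 FPKM in knockout libraries, against 8.32, 8.83 and 10.2 FPKM in wild-type libraries. The groups did not overlap, with a difference of -0.79 (SE 0.20, limma adjusted p = 0.205). Plaur, the urokinase receptor, had a difference of -0.86 (limma adjusted p = 0.327) and St14, the membrane protease matriptase, of -0.72 (limma adjusted p = 0.414), and neither pair of groups overlapped. Cd44, Plaur and St14 are also made by leukocytes or biliary cells, and the macrophage markers summed to 276 to 389 FPKM in knockout libraries and to 445 to 583 FPKM in wild-type libraries. The part of those cells in these 3 differences was not tested.

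Egfr, the epidermal growth factor receptor, varied more among knockout libraries than between the genotypes. It was at 5.18, 8.01 and 18.4 FPKM in knockout libraries, against 11.2, 12.5 and 10.9 FPKM in wild-type libraries. All 3 wild-type values lay inside the span of the knockout values, whose highest was 3.56 times the lowest, against 1.14 times in wild type. On the log2(FPKM + 1) scale the knockout range was 1.65, a range that 2.87% of the genes tested reached among knockout libraries, and the wild-type range was 0.18, which 84.1% of them reached. The means were 10.5 ± 6.97 FPKM in knockout and 11.5 ± 0.838 FPKM in wild-type libraries (SD, n = 3 each). The log2 difference was -0.29 (SE 0.39, 95% interval -1.22 to 0.64, limma adjusted p = 0.828). The difference was -0.98 in replicate 1 and 0.060 in replicates 2 and 3. Without knockout replicate 1 it was 0.079, and without knockout replicate 3 it was -0.75. The interaction of genotype with the library number set was -1.04 (95% interval -2.76 to 0.68, limma adjusted p = 0.661).

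The gene whose profile over the 6 libraries lay nearest to that of Egfr was Bhmt, betaine-homocysteine methyltransferase, with a root mean square distance of 0.16 between the log2(FPKM + 1) profiles, each centred on its own mean. Bhmt was at 511, 985 and 1567 FPKM in knockout libraries, against 1151, 1091 and 995 FPKM in wild-type libraries. The next was Ugt2b1, a glucuronosyltransferase, at a distance of 0.17. Of the 10 hepatocyte markers, 8 were likewise highest of the 6 libraries in knockout replicate 3, and 10 were highest there among the knockout libraries. The exceptions, Cyp2e1 and Cps1, were highest in wild-type libraries. The mean log2(FPKM + 1) of the 10 was 9.63, 10.13 and 10.60 in knockout libraries, against 10.14, 9.99 and 10.37 in wild-type libraries. The 10 summed to 48306, 46069 and 56542 FPKM in knockout libraries, against 46402, 43006 and 46521 FPKM in wild-type libraries. Most of that is Alb, and by this sum knockout replicate 1 stood above knockout replicate 2, unlike for Egfr. Without Alb the other 9 summed to 15256, 19480 and 22530 FPKM in knockout libraries, against 15191, 15881 and 17660 FPKM in wild-type libraries. Pck1, the gluconeogenic enzyme, was at 150.04, 373 and 896 FPKM in knockout libraries, against 350.4, 414 and 665 FPKM in wild-type libraries, and Tat, a tyrosine aminotransferase, was at 193, 326 and 674 FPKM in knockout libraries, against 335, 225 and 531 FPKM in wild-type libraries. Hnf4a, a transcription factor that maintains hepatocyte identity, was at 101, 112.6 and 151 FPKM in knockout libraries, against 101, 111 and 125 FPKM in wild-type libraries. Ttr was at 5558, 6854 and 7576 FPKM in knockout libraries, against 4307, 4484 and 4333 FPKM in wild-type libraries. Asgr1 was at 357, 463 and 490 FPKM in knockout libraries, against 320, 299 and 318 FPKM in wild-type libraries. Unlike Egfr, both stood above every wild-type library in knockout replicate 1. They were the only 2 of the 10 whose groups did not overlap, beside 16.6% of all genes tested. The part of hepatocyte RNA in the Egfr levels was not tested.

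Erbb3, the neuregulin receptor with a weak kinase of its own, was at 17.6, 13.4 and 15.3 FPKM in knockout libraries, against 23.6, 17.3 and 15.4 FPKM in wild-type libraries. Wild-type replicate 1 was the highest and the groups overlapped. The log2 difference was -0.25 (SE 0.19, 95% interval -0.71 to 0.21, limma adjusted p = 0.686), -0.40 in replicate 1 and -0.18 in replicates 2 and 3. Without wild-type replicate 1 it was -0.084.

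Erbb2, the ErbB receptor without a ligand, was the 1 gene here whose groups did not overlap. It was at 0.290, 0.375 and 0.239 FPKM in knockout libraries, against 0.403, 0.467 and 0.460 FPKM in wild-type libraries. The highest knockout value lay just under the lowest wild-type value, and the ratio of the means was 0.680. Of all rows in the table, 15.6% had groups that did not overlap, and 8.84% did so with knockout lower; among rows below the filter the shares were 11% and 5.6%. Erbb2 was below the filter and has no value in the fit of tested genes. A limma fit without the filter gave a log2 difference of -0.15 (SE 0.056, 95% interval -0.29 to -0.0097, adjusted p = 0.434, where 0.0828% of rows passed), and the exact permutation p was 0.1, the smallest possible. Fragment numbers behind values this low are unknown, so no counting interval can be given. Erbb2 is also made by biliary cells, and 6 of the 8 biliary and progenitor markers tested had differences below 0, with a median of -0.51 and 0 past the threshold by limma. Sox9, a transcription factor of biliary cells, was at 1.18, 0.819 and 1.15 FPKM in knockout libraries, against 2.76, 3.79 and 4.93 FPKM in wild-type libraries (difference -1.21, SE 0.21, limma adjusted p = 0.0815). Epcam averaged 2.92 ± 0.524 FPKM in knockout and 5.30 ± 1.51 FPKM in wild-type libraries (SD, n = 3 each, limma adjusted p = 0.307). Sox9 and Epcam were the only 2 of the 8 markers whose groups did not overlap. The 8 markers summed to 226 to 432 FPKM in knockout and 149 to 394 FPKM in wild-type libraries. Most of that is Spp1, osteopontin, without which the other 7 summed to 42.9, 31.6 and 25.6 FPKM in knockout libraries and to 41.2, 45.7 and 46.0 FPKM in wild-type libraries. No biliary marker with a row was at 0 in any library, and the part of these cells in the Erbb2 values was not tested.

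Because ErbB receptors act as pairs, their shares of the family's transcripts were compared within each library. Erbb3 made up 76.3, 61.6 and 45.0% of the summed FPKM of Egfr, Erbb2 and Erbb3 in knockout libraries and 67.0, 57.2 and 57.5% in wild-type libraries. Egfr made up 22.5, 36.7 and 54.2% in knockout libraries and 31.9, 41.3 and 40.8% in wild-type libraries. In knockout replicate 3 Egfr exceeded Erbb3, and in the other 5 libraries Erbb3 exceeded Egfr. Erbb2 made up 0.705 to 1.72% in knockout libraries and 1.15 to 1.72% in wild-type libraries, so Erbb3 stood 35.8 to 63.9 times above Erbb2 in knockout libraries and 33.5 to 58.4 times above it in wild-type libraries. The log2 ratio of Erbb3 over Erbb2 differed by -0.10 between the genotypes (exact permutation p = 0.7, adjusted p = 0.933 over 4 ratios), and its direction changed with the pseudocount.

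**Figure D3:**
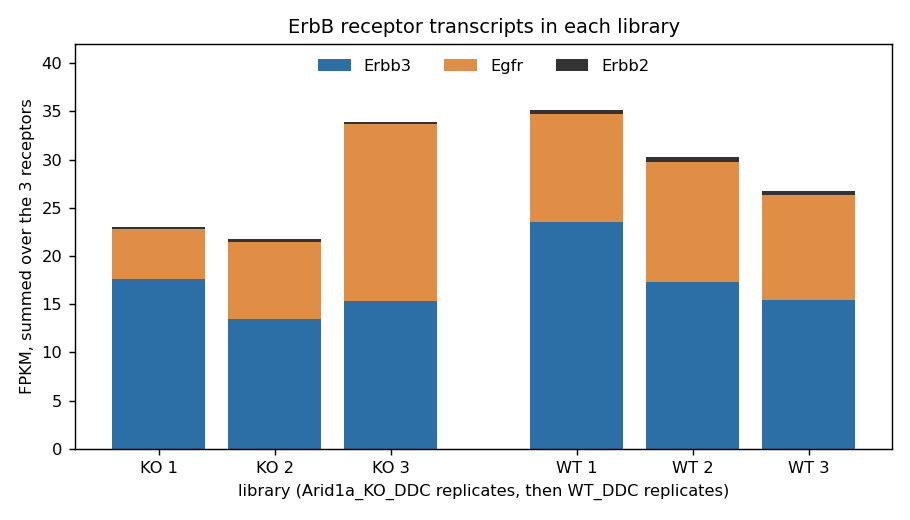
Stacked FPKM of Erbb3, Egfr and Erbb2 in each library, with the knockout (KO) replicates left of the wild-type (WT) replicates. The Egfr segment is largest in knockout replicate 3, where it takes 54.2% of the sum, and the Erbb2 segment is barely visible in any library.

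The stretches before the annotated starts of Erbb2, Hgf and Egfr are shown because Erbb2 did not overlap between the genotypes, Hgf had the difference farthest from 0 and Egfr spread most among knockout libraries. They are the 250 bases upstream of the start on the plus strand, from RefSeq on GRCm38.p6, at chr11:98412234-98412483 for Erbb2, chr5:16553245-16553494 for Hgf and chr11:16751953-16752202 for Egfr. They were searched on both strands for GGAATG, read as CATTCC on the other strand, which is the core that TEAD factors, the DNA-binding partners of YAP, recognise, and for the AP-1 motif TGANTCA, whose letters read alike on both strands. Of the 8 genes with a row in the table, 6 were matched in the RefSeq table, in which Hgf has a further start that is not shown. Capitals mark a match.
Erbb2: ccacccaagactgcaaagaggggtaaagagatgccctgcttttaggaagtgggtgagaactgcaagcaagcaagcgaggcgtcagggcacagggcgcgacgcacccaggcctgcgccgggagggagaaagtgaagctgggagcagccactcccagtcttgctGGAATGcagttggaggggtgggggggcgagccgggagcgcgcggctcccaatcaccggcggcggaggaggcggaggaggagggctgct
Hgf: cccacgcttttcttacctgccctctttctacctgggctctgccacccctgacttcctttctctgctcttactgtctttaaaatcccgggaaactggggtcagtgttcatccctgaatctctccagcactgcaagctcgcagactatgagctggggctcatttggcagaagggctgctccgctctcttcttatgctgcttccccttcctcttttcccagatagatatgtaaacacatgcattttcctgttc
Egfr: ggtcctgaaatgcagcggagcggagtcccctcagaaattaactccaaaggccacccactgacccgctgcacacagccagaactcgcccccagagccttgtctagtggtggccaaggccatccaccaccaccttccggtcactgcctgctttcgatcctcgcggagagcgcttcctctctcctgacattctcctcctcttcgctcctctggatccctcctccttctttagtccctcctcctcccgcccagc
Erbb2 held 1 TEAD core, whose first base is at -88 relative to the start, and the other 2 stretches held neither set of letters. Among the matched genes not shown, Met held 1 AP-1 motif, whose first base is at -54, and Fgfr4 and Klb held neither. Of 32851 such windows in the RefSeq table, 12.6% held the TEAD core and 6.75% the AP-1 motif. The letters are a description of sequence and do not show binding.

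Hbegf, a membrane-anchored EGFR ligand made by endothelial cells and macrophages among others, had nearly the same level in all knockout libraries. It was at 2.40, 2.42 and 2.41 FPKM in knockout libraries, against 4.54, 2.09 and 3.001 FPKM in wild-type libraries. The knockout values lay within the wild-type span, and wild-type replicate 1 was the highest. The log2 difference was -0.26 (SE 0.23, 95% interval -0.80 to 0.27, limma adjusted p = 0.713), -0.70 in replicate 1 and -0.044 in replicates 2 and 3, and -0.045 without wild-type replicate 1. The macrophage marker Marco was also highest in wild-type replicate 1, at 90.8 FPKM, against 10.3 to 21.4 FPKM in the other 5 libraries. Csf1r and Adgre1 were highest there too, by less, at 47.5 and 12.5 FPKM, whereas Lyz2 was highest in wild-type replicate 3, at 239 FPKM. The part of macrophages in the Hbegf value was not tested. Hbegf over Egfr had a log2 difference of 0.024 between the genotypes (exact permutation p = 1, adjusted p = 1 over 4 ratios).

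Of the other ErbB ligands and ERBB4, 4 genes were tested and 0 passed by limma, also at an unadjusted p under 0.05, with a median log2 difference of -0.18. Tgfa, a ligand of EGFR, was above Hbegf in every library, at 8.50, 6.84 and 7.71 FPKM in knockout libraries, against 6.53, 9.81 and 10.1 FPKM in wild-type libraries (difference -0.16, limma adjusted p = 0.798). Nrg4, a neuregulin that binds ERBB4, was at 7.85, 16.5 and 20.7 FPKM in knockout libraries, against 5.09, 13.3 and 12.1 FPKM in wild-type libraries, lowest in replicate 1 of both genotypes (difference 0.52, limma adjusted p = 0.711). Btc, betacellulin, and Nrg1, a ligand of ERBB3, had differences of -0.36 and -0.20 (limma adjusted p = 0.739 and 0.788).

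Of 12 tested genes that release ErbB ligands or restrain the receptors, 0 passed by limma, 2 had an unadjusted p under 0.05 and the median was -0.10. In 4 of the 12 the groups did not overlap, with knockout lower, beside 9.56% of all genes tested. Rhbdf2, the iRhom that carries the sheddase ADAM17 to the cell surface, was at 9.10, 11.04 and 10.2 FPKM in knockout libraries, against 15.6, 15.3 and 13.9 FPKM in wild-type libraries (difference -0.52, SE 0.13, limma adjusted p = 0.217). Adam17, which sheds amphiregulin and other EGFR ligands, was at 5.89, 6.14 and 4.94 FPKM in knockout libraries, against 7.15, 6.70 and 7.37 FPKM in wild-type libraries (difference -0.28, limma adjusted p = 0.500). Neither gene's groups overlapped. Rhbdf1, the related iRhom, had a difference of -0.62 (limma adjusted p = 0.411) that was 0.11 in replicate 1 and -0.98 in replicates 2 and 3, and Cblb, a ubiquitin ligase that turns receptors over, of -0.33 (limma adjusted p = 0.487).

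Fgfr4, the main FGF receptor of hepatocytes, had similar levels in all 6 libraries. It was at 16.9, 14.6 and 17.2 FPKM in knockout libraries, against 19.3, 15.5 and 19.3 FPKM in wild-type libraries, and the groups overlapped. The log2 difference was -0.14 (SE 0.15, 95% interval -0.49 to 0.21, limma adjusted p = 0.772), -0.18 in replicate 1 and -0.12 in replicates 2 and 3.

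Klb, whose product lets FGFR4 bind FGF15, varied more among the libraries of a genotype than between the genotypes. It was at 4.87, 2.01 and 3.28 FPKM in knockout libraries, against 4.67, 1.48 and 2.27 FPKM in wild-type libraries. Replicate 1 was the highest and replicate 2 the lowest in both genotypes, and the groups overlapped. The log2 difference was 0.24 (SE 0.36, 95% interval -0.63 to 1.10, limma adjusted p = 0.845), 0.049 in replicate 1 and 0.33 in replicates 2 and 3. It was 0.57 without wild-type replicate 1 and -0.027 without wild-type replicate 2. Per unit of Fgfr4, Klb was 0.138 to 0.288 in knockout libraries and 0.0957 to 0.243 in wild-type libraries in FPKM, with a log2 difference of 0.38 (exact permutation p = 0.3, adjusted p = 0.6 over 4 ratios).

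The profile nearest to that of Klb was Rdh11, a retinol dehydrogenase, at 32.3, 15.96 and 19.9 FPKM in knockout libraries, against 32.9, 12.1 and 15.7 FPKM in wild-type libraries (root mean square distance 0.099). Acly, the ATP citrate lyase of fatty acid synthesis, was next (distance 0.13), at 79.1, 34.3 and 44.8 FPKM in knockout libraries, against 74.0, 27.5 and 41.4 FPKM in wild-type libraries. For Hgf the nearest were Flt4, a VEGF receptor of sinusoidal and lymphatic endothelium, and Spsb1, an adaptor of ubiquitin ligases (distances 0.091 and 0.097). Flt4 was at 2.72, 1.05 and 0.946 FPKM in knockout libraries, against 3.73, 2.82 and 3.04 FPKM in wild-type libraries. These genes were picked as nearest among all genes tested, so their likeness carries no test.

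**Figure D4:**
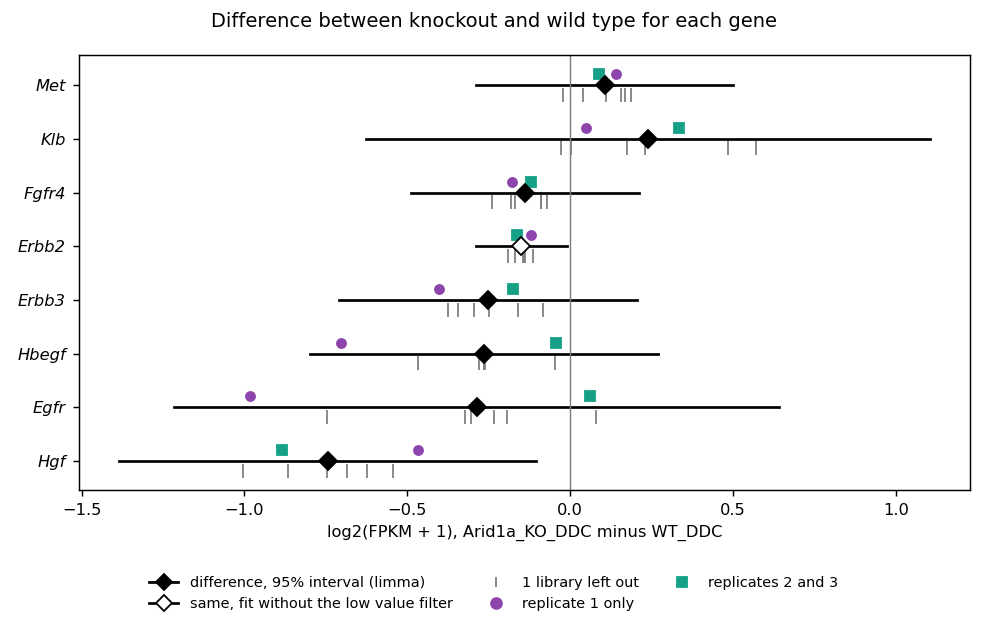
Log2 difference in FPKM + 1 (x axis), Arid1a_KO_DDC minus WT_DDC, for the 8 genes: diamonds with 95% intervals from limma on 6 libraries (Erbb2 from the fit without the low value filter), grey ticks with 1 library left out, purple circles for replicate 1 and green squares for replicates 2 and 3. The intervals of Hgf and Erbb2 alone lie below 0, before adjustment for the number of genes tested, and Egfr has its circle at -0.98 and its square at 0.060.

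The interaction of genotype with the library number set passed the threshold for 0 of the 7 tested genes and for 0 of all 11839 by limma, with 9.05% of genes at an unadjusted p under 0.05. Its adjusted p-values for the 7 ran from 0.603 for Hbegf to 0.975 for Met. The first set holds 1 library of each genotype, so the test has little power.

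Of 8 tested FGF receptors, ligands and adaptors other than Fgfr4, 0 passed by limma, also at an unadjusted p under 0.05. The median log2 difference was -0.050, and for 1 of the 8 the groups did not overlap, beside 16.6% of all genes tested. Fgfr2 was near Fgfr4 in level, at 13.1, 22.6 and 20.3 FPKM in knockout libraries, against 16.4, 20.5 and 17.6 FPKM in wild-type libraries, and Fgfr3 was at 9.43, 6.13 and 4.94 FPKM in knockout libraries, against 5.81, 6.46 and 7.92 FPKM in wild-type libraries. The liver hormone Fgf21, which signals through KLB with FGFR1, was uneven in wild type, at 7.31, 6.19 and 10.8 FPKM in knockout libraries, against 0.890, 25.5 and 3.13 FPKM in wild-type libraries (difference 0.59, limma adjusted p = 0.842). Frs3, an adaptor of FGF receptors, had a difference of -0.37 (limma adjusted p = 0.451) with groups that did not overlap, Fgfrl1, a receptor without a kinase, of -0.44 and Frs2 of -0.093.

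Of 6 genes of bile acid synthesis and its regulation, 0 passed by limma and 1 had an unadjusted p under 0.05. For 5 the difference was above 0, and the median was 0.55. The list mixes enzymes with the nuclear receptors Nr0b2 and Nr1h4 (differences 0.36 and -0.046), so its median does not stand for FGF15 signalling alone. Groups were apart for 1 of the 6, with knockout higher, beside 16.6% of all genes tested in either direction. Cyp8b1, the sterol 12-alpha-hydroxylase, was at 8.12, 4.98 and 16.2 FPKM in knockout libraries, against 2.74, 0.809 and 0.451 FPKM in wild-type libraries, with groups that did not overlap (difference 2.19, SE 0.48, limma adjusted p = 0.147). Cyp7a1, the rate-limiting enzyme of bile acid synthesis, was at 7.10, 6.60 and 17.2 FPKM in knockout libraries, against 12.9, 1.15 and 1.80 FPKM in wild-type libraries (difference 1.25, limma adjusted p = 0.588). Its difference was -0.78 in replicate 1 and 2.26 in replicates 2 and 3. Cyp7b1 and Cyp27a1, hydroxylases of the alternative pathway, had differences of 0.75 and 0.26 (limma adjusted p = 0.623 and 0.829).

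Of 16 tested genes that respond to ERK or restrain it, 0 passed by limma and 5 had an unadjusted p under 0.05. For 14 the difference was below 0, and the median was -0.35. Over all genes tested, 11.1% had an unadjusted p under 0.05 and 49.4% a difference below 0. In 4 of the 16 the groups did not overlap, with knockout lower, beside 9.56% of all genes tested. Fos, an immediate early transcription factor, was at 3.05, 2.73 and 3.03 FPKM in knockout libraries, against 4.84, 8.01 and 7.07 FPKM in wild-type libraries (difference -0.93, SE 0.19, limma adjusted p = 0.130). Junb, its AP-1 partner, was at 16.01, 22.5 and 24.9 FPKM in knockout libraries, against 39.3, 39.1 and 37.0 FPKM in wild-type libraries (difference -0.86, SE 0.18, limma adjusted p = 0.136). The groups of both genes did not overlap. Dusp6, an ERK phosphatase induced by ERK itself, was at 16.1, 17.4 and 20.2 FPKM in knockout libraries, against 10.5, 19.0 and 25.7 FPKM in wild-type libraries (difference 0.037, limma adjusted p = 0.975). Egr1, an immediate early zinc finger factor, and Spred2, an inhibitor of RAF activation, had differences of -0.53 and -0.37 (limma adjusted p = 0.421 and 0.414). Dusp6 was chosen after its values were seen, as were Fgfr2, Fgfr3, Hnf4a, Pck1, Tat, Spp1, Nr0b2 and Nr1h4. So were the markers set against Hgf other than Lrat, Dcn and Acta2.

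Of 20 tested genes of the receptor adaptors and the RAS-ERK and PI3K-AKT cascades, 0 passed by limma, 1 had an unadjusted p under 0.05 and the median was -0.10. Groups did not overlap for 1 of the 20 with knockout lower and for 1 with knockout higher, beside 16.6% of all genes tested. Mapk3, which encodes ERK1, was at 29.1, 28.0 and 29.5 FPKM in knockout libraries, against 42.2, 57.4 and 41.7 FPKM in wild-type libraries, with groups that did not overlap (difference -0.67, SE 0.16, limma adjusted p = 0.181). Braf and Map2k1, kinases of this cascade, had differences of -0.28 and -0.16.

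Of 13 tested growth factor receptors and ligands of other families, 0 passed by limma, 2 had an unadjusted p under 0.05 and the median was -0.055. In 3 of the 13 the groups did not overlap, with knockout lower, beside 9.56% of all genes tested. Pdgfra, a receptor of fibroblasts and stellate cells, was at 0.949, 1.20 and 0.670 FPKM in knockout libraries, against 2.76, 1.74 and 2.26 FPKM in wild-type libraries (difference -0.74, SE 0.19, limma adjusted p = 0.213). Igf2, a fetal liver growth factor, was at 3.04, 7.84 and 0.861 FPKM in knockout libraries, against 0.328, 1.22 and 0.210 FPKM in wild-type libraries (difference 1.41, limma adjusted p = 0.420), and its groups overlapped. The receptor Axl and its ligand Gas6 had differences of -0.52 and -0.45 (limma adjusted p = 0.487 and 0.481) with groups that did not overlap. Over the 8 lists, 92 genes were tested and 0 passed by limma, while 14 had an unadjusted p under 0.05, or 15.2%, beside 11.1% of all genes tested.

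**Figure D5:**
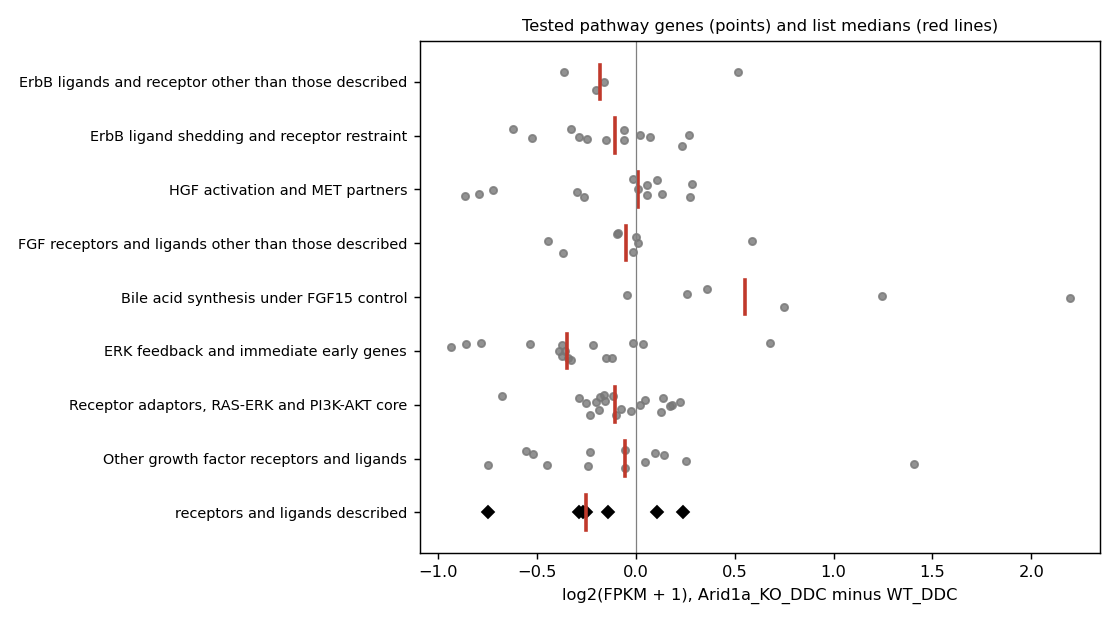
Log2 difference in FPKM + 1 (x axis), Arid1a_KO_DDC minus WT_DDC, of each tested gene (points) in 8 pathway lists and of the 7 tested receptors and ligands (black diamonds, lowest row), with a red line at each median; the vertical spread of points is for legibility. The ERK response list has its median at -0.35 and the bile acid list at 0.55, and no point passed the threshold.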

How the data were processed

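Whole-liver RNA-seq was deposited by the authors as log2 FPKM, with 6 library columns in 1 table. The submitters' processing notes name TopHat2 2.0.6, Cufflinks and the builds mm10 and GRCm38, and no annotation is given in the sources used. The minimum of the table, a log2 of -10, marks an FPKM of 0 plus an offset of 0.000977. The offset was removed: of 60069 values between 1 and 50 FPKM, 100% were then numbers of 6 significant digits (relative tolerance 3e-08) and 0% before.

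FPKM are not counts, and fragment numbers are unknown, so no count model and no counting intervals were used. Values were taken to log2(FPKM + 1). Genes with at least 1 FPKM in at least 3 libraries were fitted with limma 3.58.1 under R 4.3.3 (eBayes with trend, two-sided, Benjamini-Hochberg adjustment over all 11839 genes, threshold 0.05). The fit was tested on simulated data. Ratios of genes were taken within a library as log2 ratios of FPKM + 1. Those among the receptors and ligands were tested by exact two-sided permutation of libraries. Areg over Egfr could not be computed. Figures were drawn with matplotlib 3.10.9.

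The 9 genes, the pathway lists and the marker lists were chosen with earlier results of these data known. Named genes are the 9, Arid1a and up to 4 tested genes per list with the smallest p. For those of the 9 ranging over at least 1 log2 unit, the 2 nearest profiles are also named. Alb and Ddx3y are given as checks of the libraries, outside this rule. For any other gene the text says that it was picked with its values in view. Of the marker genes this rule names, those that stand beside a result are given. A further gene under the rule is not reported here.

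The settings varied were the pseudocount (0.1 or 5), the filter (none, or 5 FPKM), the scaling (median-of-ratios or quantile), eBayes (without trend, or robust), a replicate block, the 2 library number sets as a term, libraries L0602 to L0605 alone, and each library left out in turn.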

Additional observations from a re-analysis of the deposited data

How the results depend on the processing

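Of the 7 tested genes 0 passed the threshold under any alternative run, and likewise 0 of the 92 pathway genes. Among the 7 the smallest adjusted p was 0.115, for Hgf without Arid1a_KO_DDC replicate 1, within 0.115 to 0.730 over the alternatives. Hgf ranged from -1.18 (pseudocount 0.1) to -0.30 (pseudocount 5). Erbb2, which was not tested, was -0.45 with a pseudocount of 0.1 and -0.038 with 5.

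The direction turned for 3 of the 7. With 1 library left out, Egfr ran from -0.75 to 0.079, Met from -0.023 to 0.19 and Klb from -0.027 to 0.57. Among the pathway and marker genes named for their small p, it also turned for Nrg1 (-0.35 to 0.015), Fgf21 (-0.23 to 1.67), Frs2 (-0.17 to 0.044), Cyp27a1 (-0.023 to 0.67), Cd79b (-0.67 to 0.10), Cd79a (-1.08 to 0.012) and Cd4 (-0.41 to 0.038). In libraries L0602 to L0605 alone Egfr was 0.060 and Fgf21 -0.18. Some genes picked with their values in view also turned there. Dusp6 was -0.23, Nr1h4 0.14, Pck1 0.14 and Spp1 -0.13, against 0.037, -0.046, -0.31 and 0.28 over all 6 libraries. The cause was not tested. Lyz2 without knockout replicate 1 and Jchain without knockout replicate 2 passed the threshold (-1.13 and -5.58, limma adjusted p = 0.0448 and 0.00879).

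The ratio Hbegf over Egfr was -0.00402 with a pseudocount of 0.1 and -0.10 in libraries L0602 to L0605, and -0.34 to 0.48 with 1 library left out. Erbb3 over Erbb2 was 0.18 with a pseudocount of 0.1 and -0.23 to 0.086 with 1 library left out. Klb over Fgfr4 (0.17 to 0.66) and Hgf over Met (-1.16 to -0.52) kept their direction.

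Over all genes limma called 16 higher and 42 lower in knockout. The counts were 5 and 7 with no filter, 33 and 59 with the library number term, and 26 and 37 in libraries L0602 to L0605. With 1 library left out they ran from 0 to 30 higher and 0 to 40 lower. With the replicate block 0 passed in either direction, Hgf included (adjusted p = 0.243). This fit has fewer residual degrees of freedom, and pairing by number was not borne out: correlations across genes of deviations from the group means were 0.35, 0.13 and 0.021 for numbers 1, 2 and 3, and knockout replicate 2 correlated best with wild-type replicate 3 (0.26).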

Other observations

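Leukocyte markers, several of them sources or targets of the ligands described, stood mostly below 0 between Arid1a_KO_DDC and WT_DDC livers, and 0 passed the threshold by limma. The 3 neutrophil markers with a row summed to 13.4, 27.0 and 23.6 FPKM in knockout libraries, against 35.6, 58.8 and 32.6 FPKM in wild-type libraries. S100a9, a calcium-binding protein of neutrophil granules, was at 5.51, 10.7 and 9.89 FPKM in knockout libraries, against 17.5, 28.6 and 15.9 FPKM in wild-type libraries (log2 difference -1.16, limma adjusted p = 0.226). The 8 macrophage markers with a row all had differences below 0. Csf1r, the receptor of the macrophage growth factor CSF1, was at 26.5, 25.6 and 18.4 FPKM in knockout libraries, against 47.5, 35.4 and 38.6 FPKM in wild-type libraries. Its log2 difference was -0.77 (limma adjusted p = 0.202), and it was among 3 of the 8 macrophage markers whose groups did not overlap. The 5 markers of T and innate lymphoid cells with a row summed to 3.24, 4.70 and 1.68 FPKM in knockout libraries, against 5.62, 6.32 and 6.60 FPKM in wild-type libraries.

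The 3 B and plasma cell markers with a row were uneven among knockout libraries. They summed to 2.57, 131 and 1.40 FPKM in knockout libraries, against 48.5, 101.0 and 100.98 FPKM in wild-type libraries, most of it from Jchain, the joining chain of secreted IgM and IgA. Knockout replicate 2 was the highest of the 6 libraries and the other 2 knockout libraries the lowest.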
